A study of Trichoderma reesei with 2 samples.

Results

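Of 9129 gene models of Trichoderma reesei strain HJ48, 173 were abundant at like level in both libraries of the series. They were chosen by their measured values: at least 200 FPKM in each library, and a larger value at most 4 times the smaller. FPKM, the number of fragments per kilobase of a gene model relative to the size of its library, was used as deposited. Gene models of scaffold 7 were left out of the choice. The levels and ratios of these members are therefore a description, and no test was made of them.

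T. reesei is a filamentous fungus used for cellulase production, and the series set out to compare its transcriptome during ethanol fermentation without and with oxygen. Total RNA came from 4-day-old hyphae of HJ48, a strain and age that both libraries share, and 1 library stands for each condition. Title and condition field contradict each other in both libraries (the anaerobic-titled library is called aerobic in its condition field, and the reverse), so levels are compared between the titled libraries and not assigned to oxygen supply. The design text speaks of 3 replicates, but the table has 1 column per condition, so no difference has a replicate check. The library sizes behind the values, recovered from the values themselves, were 8887469 for the anaerobic-titled library and 8126938 for the aerobic-titled library.

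In growing fungal hyphae, the most abundant messenger RNAs commonly encode ribosomal proteins, translation elongation factors, histones, glycolytic enzymes and small secreted proteins. Transcripts that stay abundant across growth conditions are often those of such housekeeping functions, which supply protein synthesis and energy metabolism whether the cell respires or ferments. Ethanol fermentation itself turns pyruvate into ethanol through pyruvate decarboxylase and alcohol dehydrogenase. Which of the members encode such proteins was not analysed here, because the deposited table names genes by model identifiers only. Of all 9129 gene models, 0 were found by identifier among the 9116 genes of the RefSeq table of strain QM6a. The same 0 among the 173 members is therefore no trait of the members. The hyphal label was not checked against marker genes for the same reason, and no sequence or position is given.

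The 173 members made up 1.90% of the gene models but held 28.3% of the summed FPKM in the anaerobic-titled library and 27.3% in the aerobic-titled library. Their levels ran from 202 to 55275 FPKM in the anaerobic-titled library, with a median of 542 FPKM. In the aerobic-titled library they ran from 202 to 64097 FPKM, with a median of 533 FPKM. The members thus spanned a wide range above the limit of the rule. By the smaller of the 2 values, 33 members were at 1000 FPKM or more, 31 at 500 to 1000 FPKM and 109 at 200 to 500 FPKM. In bulk RNA, fewer cells of a kind and less RNA per cell cannot be told apart.

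**Figure D1:**
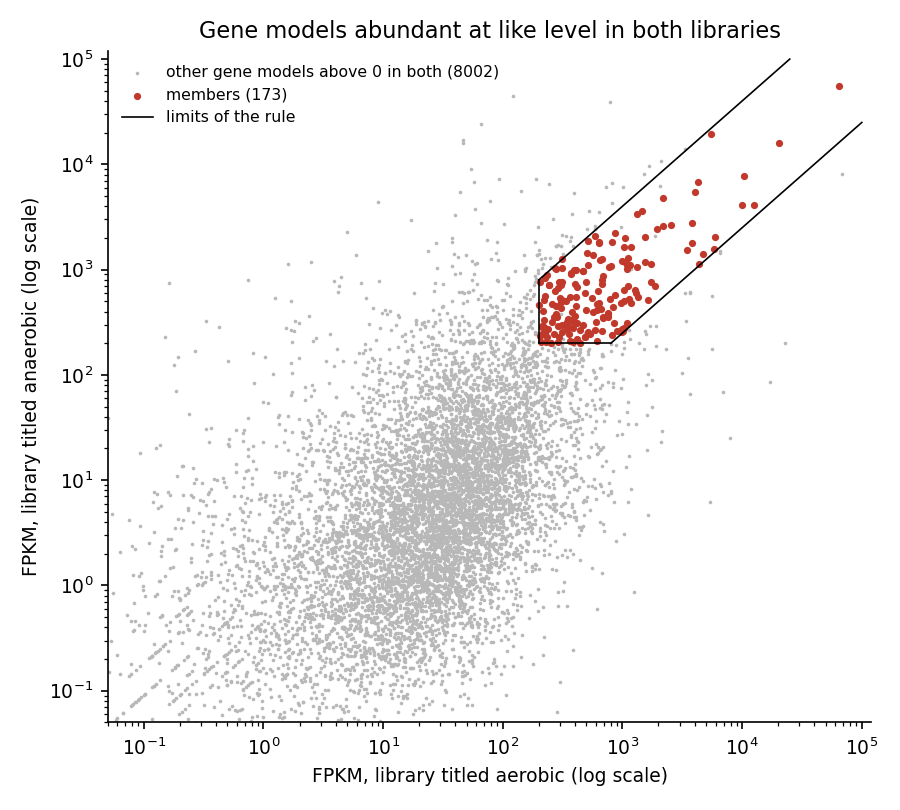
FPKM of each gene model above 0 in both libraries, aerobic-titled library on the horizontal and anaerobic-titled library on the vertical axis (both log scales, cropped at their lower end). Red points are the 173 members inside the limits of the rule, grey points the other 8002 gene models, and grey points inside the limits lie on scaffold 7.

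Abundance among the members was concentrated in a few gene models. The 12 with the highest geometric mean held 52.4% of the members' summed FPKM in the anaerobic-titled library and 56.2% in the aerobic-titled library. The highest was fgenesh5_pg.C_scaffold_23000017 on scaffold 23, with 55275 FPKM in the anaerobic-titled library and 64097 FPKM in the aerobic-titled library. It ranked 1 of 9129 in the anaerobic-titled library and 2 in the aerobic-titled library, and alone held 6.31% and 6.60% of the summed FPKM. Its level was 1.16-fold higher in the aerobic-titled library, with a 95% exact counting interval of 1.15 to 1.17 from 131165 and 139083 reads.

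The next member, estExt_Genewise1.C_20662 on scaffold 2, had 16026 FPKM in the anaerobic-titled library and 20191 FPKM in the aerobic-titled library, and ranked 7 and 4. The model gw1.15.378.1 on scaffold 15 had 7818 and 10302 FPKM and ranked 15 and 7. In FPKM as deposited, these 3 gene models were a little higher in the aerobic-titled library, by at most 1.32-fold. Their direction depends on the scaling: with the ratios centred on gene models that reached 10 FPKM in both libraries, their log2 ratios turned to 0.52, 0.40 and 0.33. On scaffold 1, estExt_fgenesh5_pg.C_10410 had 6803 FPKM in the anaerobic-titled library and 4316 FPKM in the other, ranks 18 and 21. On scaffold 24, estExt_fgenesh5_pg.C_240136 had 5495 and 4008 FPKM, ranks 26 and 22. Both lay a little higher in the anaerobic-titled library, by 1.58-fold and 1.37-fold. The sixth of the 12 that lay within 2-fold was estExt_GeneWisePlus.C_10038 on scaffold 1, with 2751 FPKM in the anaerobic-titled library and 3809 FPKM in the aerobic-titled library.

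The other 6 of the 12 differed by more than 2-fold. The level of fgenesh1_pm.C_scaffold_1000259 was 19332 FPKM in the anaerobic-titled library and 5468 FPKM in the aerobic-titled library, which is 3.54-fold higher in the former (interval 3.50 to 3.57). The model estExt_Genewise1.C_40441 on scaffold 4 was also higher in the anaerobic-titled library, with 4800 FPKM against 2178 FPKM. In the opposite direction lay e_gw1.42.18.1 on scaffold 42, with 4142 FPKM in the anaerobic-titled library and 12485 FPKM in the aerobic-titled library. Its level was 3.01-fold higher in the aerobic-titled library (interval 2.95 to 3.08). The same direction was seen for kg2.C_scaffold_2000050, with 4116 and 10015 FPKM, for fgenesh1_pm.C_scaffold_1000152, with 2034 and 5989 FPKM, and for estExt_Genewise1.C_50855, with 1574 and 5841 FPKM. For these 6 gene models the counting intervals are narrow, because each rests on at least 7555 reads per library, and the unknown spread between cultures sets the limit.

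**Figure D2:**
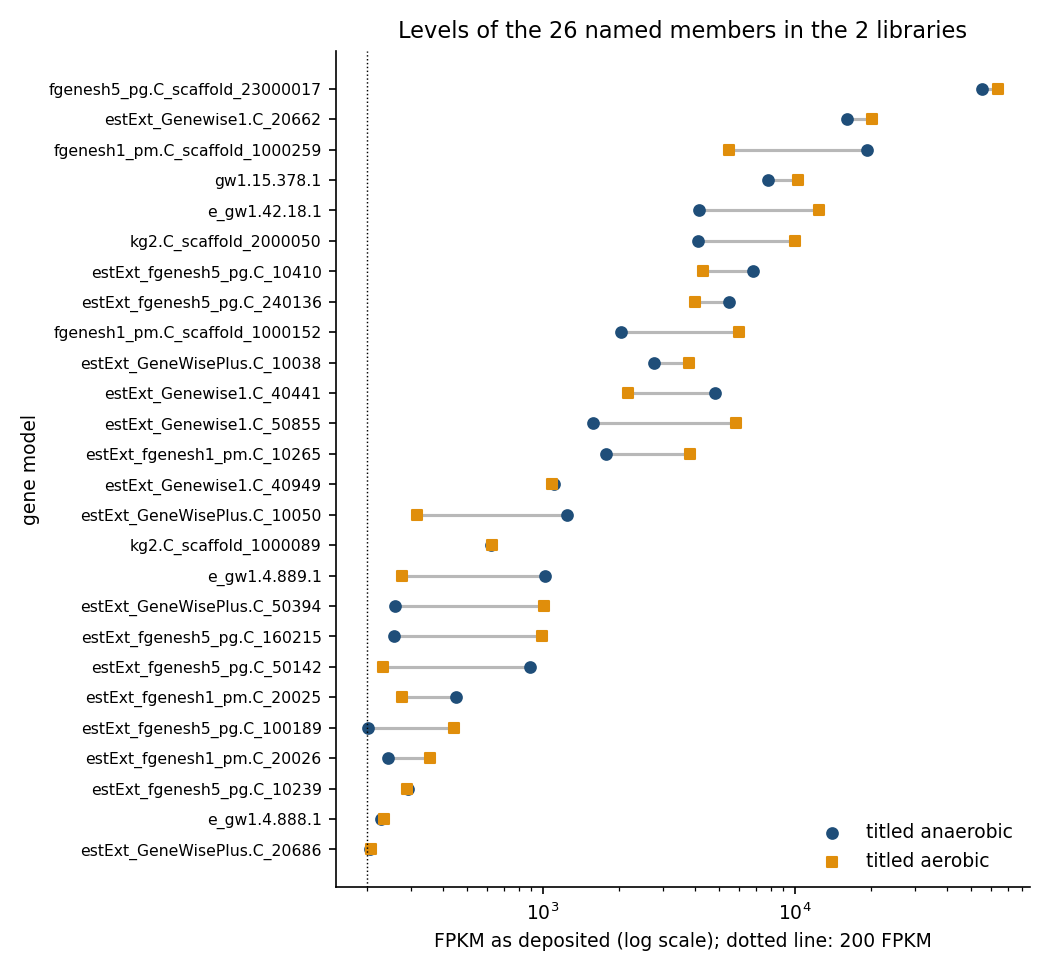
FPKM as deposited (log scale) of the 26 named members in the anaerobic-titled library (circles) and the aerobic-titled library (squares), ordered by geometric mean, with a dotted line at the limit of 200 FPKM. The 4 members with a ratio nearest 1 show overlapping symbols, and the members with the most extreme ratios show bars close to the allowed 4-fold.

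Rank within a library does not change when all values of that library are multiplied by a common factor. The members had a median rank of 224 in the anaerobic-titled library and 223 in the aerobic-titled library. The lowest-ranked member stood at 504 in the anaerobic-titled library and at 684 in the aerobic-titled library, where more gene models reached 200 FPKM (691 against 509). Of the 173, 90 ranked higher in the anaerobic-titled library, 82 ranked higher in the aerobic-titled library and 1 had the same rank. Among the 33 members at 1000 FPKM or more in both, 24 ranked higher in the aerobic-titled library and 9 in the anaerobic-titled library. Among the 109 members whose smaller value was 200 to 500 FPKM the numbers were 42 and 67. By FPKM the same tiers were even, with 16 of the 33 and 53 of the 109 higher in the anaerobic-titled library. The lowest-ranked of the 33 stood at 138 in the anaerobic-titled library and at 100 in the aerobic-titled library. The same level thus has unlike ranks in the 2 libraries, and the rank splits are not read as a result about the members. The top 100 of both libraries shared 24 members among 33 gene models, and the top 500 shared 143 members among 192 gene models.

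Ratios set the anaerobic-titled library over the aerobic-titled library, as log2(FPKM + 1) differences. Their median over the 173 members was -0.0082, with quartiles of -0.78 and 0.74. Within 2-fold lay 104 members, while 36 were at least 2-fold higher and 33 at least 2-fold lower in the anaerobic-titled library. Of the 8197 gene models that reached 1 FPKM in at least 1 of the libraries, called compared gene models here, 21.0% lay within 2-fold, 13.0% were at least 2-fold higher and 66.0% at least 2-fold lower, and their median log2 ratio was -1.85. The rule bounds the members' ratios, so nothing is read from their counts against these.

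Like level depends on how the libraries are scaled. Equal sums added 0.15 to every log2 ratio, centring on gene models that reached 10 FPKM in both libraries (the scaling at 10 FPKM) added 0.73, and TMM, a trimmed mean that takes most gene models as unchanged, added 2.16. The split of 36 higher and 33 lower members became 42 and 23 with equal sums, 72 and 10 with the scaling at 10 FPKM, and 151 and 0 with TMM. The members' median log2 ratio was 0.14, 0.72 and 2.15 under these scalings. All 16 named members that were lower in the anaerobic-titled library as deposited turned to higher with TMM, 8 of them already with the scaling at 10 FPKM. With TMM this, and the 0 lower members, were fixed in advance, because its shift is larger than the 4-fold that the rule allows. Like level and every direction given here thus refer to FPKM as deposited. Applied after TMM scaling, with the factor shared equally between the libraries, the rule found 105 gene models, of which 60 were members.

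**Figure D3:**
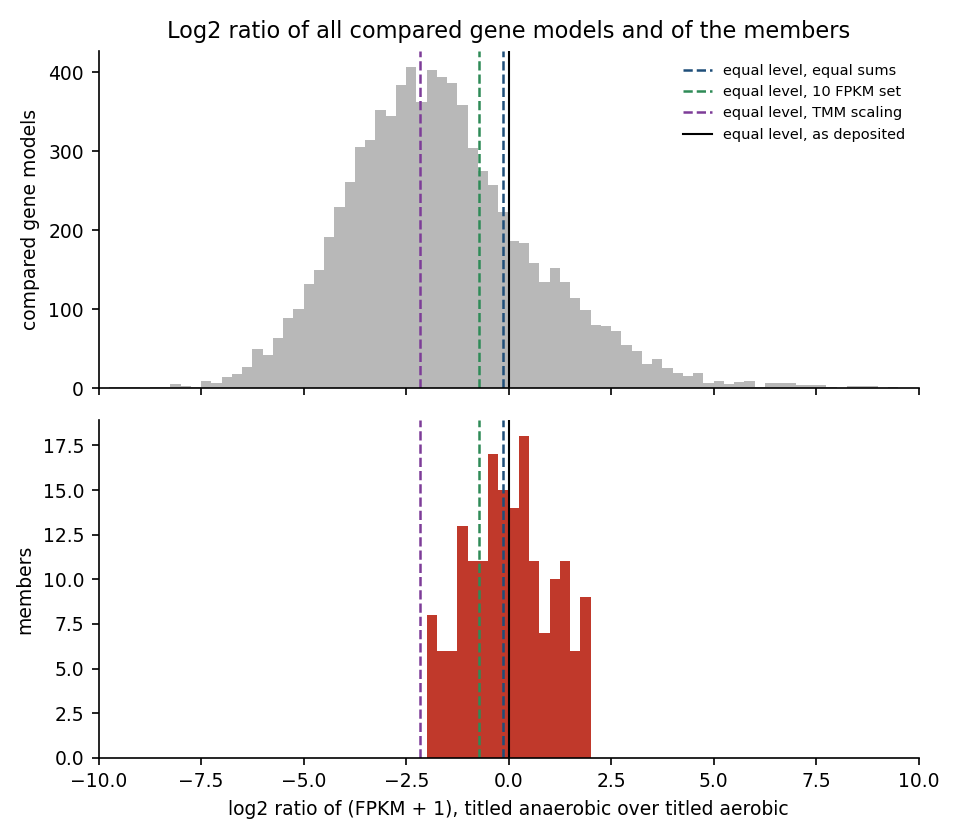
Histograms of the log2 ratio of FPKM + 1, anaerobic-titled over aerobic-titled, in bins of 0.25, for the 8197 compared gene models (upper panel, median -1.85) and the 173 members (lower panel, median -0.0082). The vertical lines mark equal level for FPKM as deposited and for each other scaling, where the 10 FPKM set is the gene models that reached 10 FPKM in both libraries. All members lie to the right of the TMM line, at -2.16, as the 4-fold limit of the rule requires.

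Counting error was small beside the differences within the members. Members had at least 128 reads in the anaerobic-titled library and 304 in the aerobic-titled library, with medians of 4922 and 3887. The upper limit of the 95% exact interval of a ratio was in the median 1.09 times its lower limit, and at most 1.53 times. The interval excluded equality for 165 of the 173 members and held it for 8. Among the compared gene models it excluded equality for 91.1%. The interval lay wholly within 2-fold for 95 members, wholly beyond 2-fold higher for 35 and wholly beyond 2-fold lower for 29. The rule bounds these ratios, and the same counts were not made over the compared gene models, so nothing is read from them. These intervals address counting error only, and may understate it, since they treat reads as independent and reads are not independent molecules. They say nothing of the spread between cultures.

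A ratio within 1.2-fold was seen for 30 members, and the interval of 23 members lay within that limit too. These were not counted over the compared gene models, and the rule bounds the ratios, so the numbers are a description only. The 4 nearest to equality had levels between 205 and 1105 FPKM. The model kg2.C_scaffold_1000089 had 623 FPKM in the anaerobic-titled library and 627 FPKM in the aerobic-titled library, a ratio of 0.994 (interval 0.944 to 1.05). The model estExt_GeneWisePlus.C_20686 had 205 and 207 FPKM, and estExt_fgenesh5_pg.C_10239 had 292 and 287 FPKM. Both belonged to the least abundant of the 3 tiers above. The most abundant of the 4 was estExt_Genewise1.C_40949 on scaffold 4, with 1105 FPKM in the anaerobic-titled library and 1087 FPKM in the aerobic-titled library.

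At the edges of the allowed ratio, estExt_GeneWisePlus.C_10050 had 1249 FPKM in the anaerobic-titled library and 315 FPKM in the other, 3.96-fold lower (interval 3.82 to 4.12). It was the member nearest to the ratio limit. The gene model just outside was estExt_Genewise1.C_320112, with 2453 FPKM in the anaerobic-titled library and 588 FPKM in the aerobic-titled library, a 4.17-fold difference. The next highest ratio was that of estExt_fgenesh5_pg.C_50142, with 891 and 233 FPKM. The lowest ratios belonged to estExt_GeneWisePlus.C_50394, with 259 FPKM in the anaerobic-titled library and 1006 FPKM in the aerobic-titled library, and to estExt_fgenesh5_pg.C_160215, with 255 and 990 FPKM. Both were 3.88-fold higher in the aerobic-titled library. At the level limit, estExt_fgenesh5_pg.C_100189 was just inside with 202 FPKM in the anaerobic-titled library and 445 FPKM in the other, and fgenesh5_pg.C_scaffold_21000102 just outside with 197 and 310 FPKM. The interval of estExt_GeneWisePlus.C_10050 held the limit of 4, so its membership is within counting error. The same was true of estExt_fgenesh5_pg.C_50142 (interval 3.57 to 4.11), estExt_GeneWisePlus.C_50394 (3.72 to 4.06) and estExt_fgenesh5_pg.C_160215 (3.68 to 4.09). Other members near the ratio limit share this, among them e_gw1.4.889.1 (3.27 to 4.15). Counting intervals were computed for ratios only, so membership at the level limit was not checked in this way.

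Outside scaffold 7, 223 gene models reached 200 FPKM in both libraries, and the 173 members were 77.6% of them. The other 50 differed by more than 4-fold, 34 of them higher in the anaerobic-titled library and 16 higher in the aerobic-titled library. The 34 had a median of 2285 FPKM in the anaerobic-titled library and 366 FPKM in the aerobic-titled library. The 16 had medians of 309 and 3368 FPKM. A further 258 gene models reached 200 FPKM in the anaerobic-titled library only, and 445 in the aerobic-titled library only. These groups serve below for comparison of the kind of model, which the rule did not use, and of length. Length enters the rule indirectly, because FPKM divides reads by length.

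The kinds of gene model among the members differed from those in the table as a whole. Models with the estExt prefix, which the gene prediction pipeline extended with expressed sequence tags, made up 113 of the 173 members (65.3%). They made up 39.1% of compared gene models, 58.0% of the 50 gene models over the ratio limit, 52.3% of the 258 abundant in the anaerobic-titled library only and 60.4% of the 445 abundant in the aerobic-titled library only. Abundant gene models as a whole thus had more estExt models than the table, and no test sets the members apart from the other abundant ones. By kind, 6 of 92 compared kg2 models were members (6.52%), 22 of 423 estExt_Genewise1 models (5.20%), and 42 of 1167 estExt_fgenesh5_pg models (3.60%). The unextended fgenesh5_pg models had the lowest share, with 11 of 1822 (0.604%), although the most abundant member was among them. Among estExt_fgenesh1_pm models, the most abundant of 10 members was estExt_fgenesh1_pm.C_10265, with 1780 FPKM in the anaerobic-titled library and 3843 FPKM in the aerobic-titled library.

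Direction also varied between kinds of model within the members. Of the 22 estExt_Genewise1 members, 9 were at least 2-fold higher and 1 was at least 2-fold lower in the anaerobic-titled library, with a median log2 ratio of 0.85. The 39 estExt_GeneWisePlus members were split 7 and 10, with a median of -0.10, and the 42 estExt_fgenesh5_pg members 9 and 9, with a median of 0.17. The 11 unextended fgenesh5_pg members had a median of -0.57, with 1 higher and 2 lower. These differences between kinds were not tested. The rule bounds the ratios, and the same counts were not made over all compared gene models of each kind. Nothing about the members is therefore read from them.

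The length of each gene model was recovered from the FPKM values, together with its reads, and can be too small by a whole factor. The members had a median recovered length of 998 bp, with quartiles of 486 and 1414 bp, against a median of 1104 bp for compared gene models. Shortness was not particular to the members. The median was 886.5 bp for the 50 gene models over the ratio limit and 772 bp for the 445 abundant in the aerobic-titled library only. For the 258 abundant in the anaerobic-titled library only it was 1101 bp. The difference from compared gene models was larger when models with and without the estExt prefix were taken apart. Members without the estExt prefix had a median of 471.5 bp, against 935 bp for compared gene models without it, and members with the prefix had 1143 bp against 1394.5 bp. Unextended e_gw1 members were short, at 465 bp against 1020 bp, and so were unextended fgenesh5_pg members, at 405 bp against 812.5 bp. The estExt_Genewise1 members were hardly shorter, at 1488 bp against 1499 bp. The recovered length was a multiple of 3, as coding sequences have, for 50 of the 60 unextended members (83.3%) and 35 of the 113 with the prefix (31.0%). The shares among compared gene models were 89.7% and 42.3%, so the contrast belongs to the kinds of model.

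Shorter members tended to have lower ratios of the anaerobic-titled over the aerobic-titled library, in FPKM as deposited. The 33 members at least 2-fold lower in the anaerobic-titled library had a median recovered length of 623 bp, the 104 within 2-fold 969.5 bp, and the 36 at least 2-fold higher 1081.5 bp. Of 45 members under 500 bp, 5 were at least 2-fold higher and 12 at least 2-fold lower in the anaerobic-titled library, with a median log2 ratio of -0.47. Of 47 members of 1000 to 1500 bp, 17 were higher and 8 lower, with a median of 0.48. The 42 members of 500 to 1000 bp had a median of -0.15 and the 39 of 1500 bp or more a median of 0.18, so the order did not continue to the longest. A common scaling moves all classes alike: with the scaling at 10 FPKM the median was 0.26 under 500 bp and 1.21 at 1000 to 1500 bp, and with TMM 1.69 and 2.64. Over the 173 members, length and log2 ratio correlated weakly, with a Spearman rho of 0.24 and a Pearson r of 0.23 for log2 length. Some recovered lengths may be too small. Over the 169 members of 100 bp or more, rho was 0.21. Over the 50 members without the estExt prefix whose length is a multiple of 3, it was 0.12. The members share 2 libraries and are not independent.

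The relation was no stronger by rank within either kind of model, and near 0 in the table as a whole. Spearman's rho was 0.21 over the 113 members with the estExt prefix and 0.15 over the 60 without it. Pearson's r for log2 length was 0.25 with the prefix and 0.16 without it. Over the 8197 compared gene models rho was 0.043, and the median log2 ratio lay between -1.94 and -1.78 in all 4 length classes. Among the 753 other gene models outside scaffold 7 that reached 200 FPKM in at least 1 library, rho was 0.16. From the shortest to the longest class their median log2 ratios were -2.60, -2.69, 0.56 and -0.996. Most of them reached 200 FPKM in 1 library only, which itself shapes their ratios, so nothing is read from these. A difference between the members and these was not tested.

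**Figure D4:**
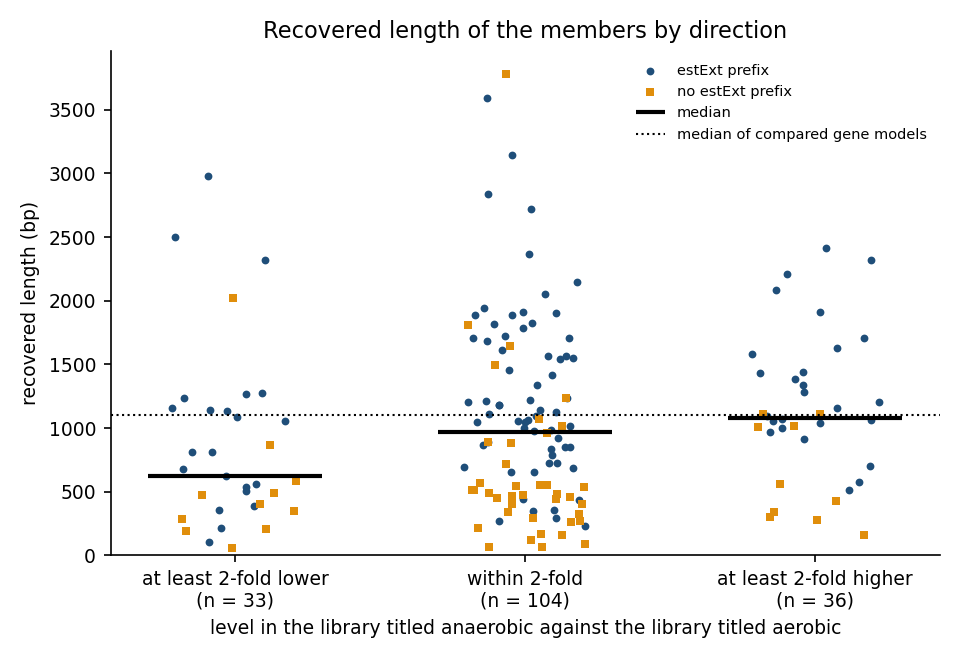
Recovered length in bp of each member, by its level in the anaerobic-titled library against the aerobic-titled library, with circles for the estExt prefix and squares for other models. Thick lines mark the group medians of 623, 969.5 and 1081.5 bp, and the dotted line the 1104 bp of compared gene models.

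Members lay on 33 of the 53 scaffolds that carry compared gene models. Scaffolds 1, 2, 4 and 5 held 72 of the 173, with 24, 19, 16 and 13 members. Outside scaffold 7, members made up 2.22% of compared gene models. Among the other scaffolds with 100 or more compared gene models, scaffold 7 not included, the share was highest on scaffold 18, with 8 of 169 (4.73%), followed by scaffold 28, with 5 of 109 (4.59%), and scaffold 21, with 6 of 138 (4.35%). It was lowest on scaffold 19, with 1 of 158 (0.633%). The large scaffolds differed as well, as scaffold 2 had 19 members among 503 compared gene models (3.78%) and scaffold 3 had 4 among 487 (0.821%). These shares rest on few gene models, were not tested, and count neighbouring gene models as if independent.

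Ratios within a scaffold were mixed. On scaffold 18, 2 members were at least 2-fold higher and 4 at least 2-fold lower in the anaerobic-titled library, with a median log2 ratio of -0.87. On scaffold 4, 4 were higher and 1 was lower among 16, with a median of 0.32. Among the members, 2 pairs of the same kind of model had consecutive numbers in their names. How many such pairs the table as a whole holds was not counted. On scaffold 4, e_gw1.4.888.1 had 227 FPKM in the anaerobic-titled library and 235 FPKM in the aerobic-titled library, while e_gw1.4.889.1 had 1018 and 276 FPKM. On scaffold 2, estExt_fgenesh1_pm.C_20025 had 453 FPKM in the anaerobic-titled library and 276 FPKM in the aerobic-titled library, against 242 and 355 FPKM for estExt_fgenesh1_pm.C_20026. In the first pair the members had unlike ratios, and in the second they lay in opposite directions in FPKM as deposited. With the scaling at 10 FPKM both members of the second pair were higher in the anaerobic-titled library, with log2 ratios of 1.44 and 0.18. Whether consecutive numbers mean adjacent positions was not checked.

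**Figure D5:**
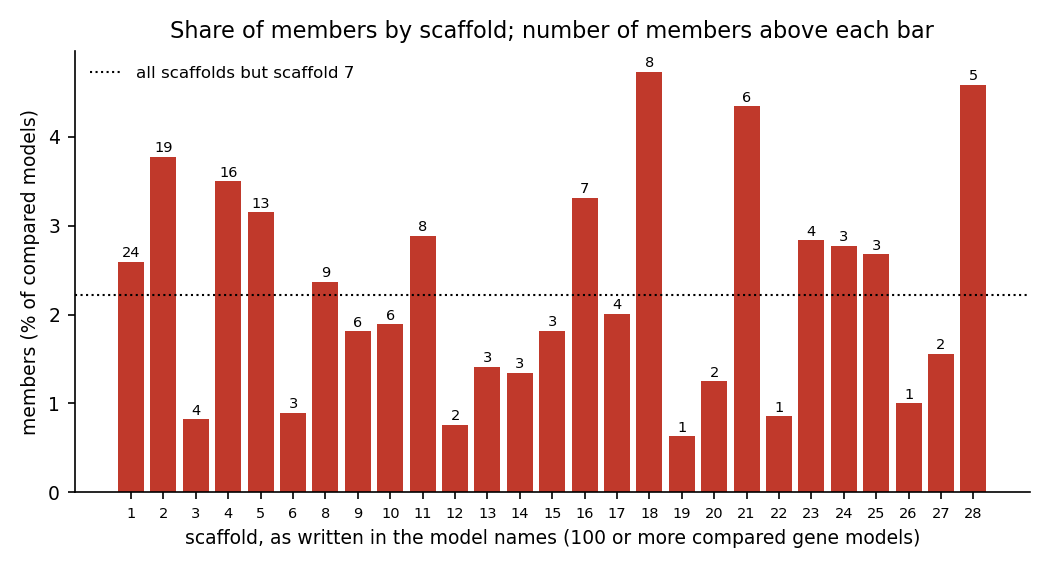
Members as a percentage of compared gene models on each scaffold but scaffold 7 with 100 or more of these, with the number of members above each bar and a dotted line at the 2.22% of all scaffolds but scaffold 7. Scaffold 18 has the highest bar, at 4.73%, and scaffold 19 the lowest, at 0.633%.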

How the data were processed

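The authors deposited FPKM values of 9129 gene models, in 1 column per library. Bowtie2 2.2.3, HTSeq 0.6.1 and TopHat2 2.0.12 are named, without roles, per the submitters' processing notes. Build, annotation, strand setting and filters were not given in the sources used here. Trizol served for extraction and a NEBNext Ultra kit for the libraries, per the labels' protocols. Columns were matched to samples by description and grouped by title.

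The total each library was scaled to was chosen so that 200 low FPKM values give whole lengths for 1 read. Only the total of the anaerobic-titled library was searched over a wide range. That of the aerobic-titled library was sought in a narrow range, set by the first total and the most frequent ratio of low values. It thus depends on the first total. The chosen totals did so for 95.0% and 86.5%, and the next best in the anaerobic-titled library, 26662407, for 77.5%. This next best is a whole multiple of the chosen total, so the comparison does not show how unique the chosen total is. Reads and length were then the smallest whole numbers that fit both values, and were found for all 8910 gene models above 0. On simulated data with 8792 gene models, 2 of 2 totals were returned, but the search was limited to ranges set around the true totals. It is therefore no check of the search in the real data. Given the true totals, the exact length was returned in 79.4%, or 83.9% of 236 at 200 FPKM or more in both. Log2 ratios used a pseudocount of 1, which understates changes of low gene models. Ratios used 95% Clopper-Pearson intervals.

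Named are the 12 most abundant members, the 2 highest and 2 lowest ratios, the 4 nearest 1, gene models at each limit, runs of consecutive numbers and the most abundant of each kind. Members and this rule were chosen with earlier results of these data known. With 1 library per group, no p-value is given. Alternatives were other limits, pseudocounts, scalings, filters and subsets. Python 3.11.15, numpy 2.4.6, pandas 2.3.3, scipy 1.17.1 and matplotlib 3.10.9 were used.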

Additional observations from a re-analysis of the deposited data

How the results depend on the processing

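Of the 173 members, the rule kept 64 with a limit of 500 FPKM and 103 with a largest ratio of 2, and found 360 gene models with a limit of 100 FPKM. With TMM it found 105. The number stayed within 1.5 times of 173 with largest ratios of 3 and 8 and with scaffold 7 kept. It also did with equal sums (167, of which 162 were members) and the scaling at 10 FPKM (170, of which 132 were members). The top 500 of both libraries by rank in place of FPKM, chosen after seeing the data, gave 181, of which 143 were members. The median log2 ratio, -0.0082, was 0.72 with the scaling at 10 FPKM and 2.15 with TMM. Members at least 2-fold higher numbered 72 and 151 under these scalings, and members at least 2-fold lower 10 and 0. At 1.5-fold, 52 were higher and 51 lower. The pseudocounts changed the counts by at most 1.

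The members' share of the summed FPKM in the anaerobic-titled library was 22.9% without the 20 highest gene models, 30.6% without scaffold 7, 32.7% and 22.8% with limits of 100 and 500 FPKM, and 22.2% in recovered reads. In the aerobic-titled library it was 18.5%, 28.1%, 31.1%, 22.4% and 20.8%. The median recovered length was 1143 bp with the estExt prefix, 471.5 bp without it and 822.5 bp with a limit of 500 FPKM. Of 156 values of named members under alternatives, 79 stayed within counting error. All values under the pseudocounts were among these. Under the scalings, 25 of 26 values moved beyond counting error with equal sums, and all 26 with the scaling at 10 FPKM and with TMM. The sign changed in 27 of the 156: 3 with equal sums, 8 with the scaling at 10 FPKM and 16 with TMM. The 16 are all named members that were lower as deposited in the anaerobic-titled library. Of those at least 2-fold lower, 8 turned, in each case with TMM: e_gw1.42.18.1 at 0.57, kg2.C_scaffold_2000050 at 0.88, fgenesh1_pm.C_scaffold_1000152 at 0.60, estExt_Genewise1.C_50855 at 0.27, estExt_GeneWisePlus.C_50394 at 0.20, estExt_fgenesh5_pg.C_160215 at 0.21, estExt_fgenesh5_pg.C_100189 at 1.02 and estExt_fgenesh1_pm.C_10265 at 1.05 (log2 ratios). TMM adds 2.16 to every log2 ratio by construction. That shift is larger than the 4-fold that the rule allows, so every sign change with TMM was fixed in advance. No paired analysis was possible because there is 1 library on each side, which also leaves no replicate to drop.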

Other observations

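Among members of different kinds, gw1.8.408.1 and e_gw1.8.409.1 on scaffold 8 have consecutive numbers, and no number on a scaffold occurs in both the gw1 and the e_gw1 models. The first had 262 FPKM in the anaerobic-titled library and 680 FPKM in the aerobic-titled library, the second 477 and 1182 FPKM, ratios of 0.385 and 0.404. This pair was chosen after seeing its values, and whether both models cover the same transcript was not tested.

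Recovered lengths under 100 bp were found for 4 members, among them gw1.15.378.1 with 62 bp. A length that is too small by a whole factor makes the reads too few by the same factor, and leaves the ratio as it is.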
